A study of Homo sapiens with 5 samples.

Results

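The regions described here are sites of the HIF1α chromatin map that appeared only in cells given arsenite (iAs) and that lie away from the start sites of protein-coding genes. They were selected from 21088 regions that the authors merged over 4 ChIP-seq libraries, on the human build hg19. A region was taken when it overlapped, by at least 1 bp, an interval of the HIF1α library of iAs-treated cells and no interval of the other 3 libraries, and when its centre lay more than 1 kb from every transcription start site (TSS) of a protein-coding transcript. Of the 21088 regions, 9191 (43.6%) were HIF1α iAs-only, and 1857 of these were away from start sites, which is 18.7% of the 9937 merged regions that far from a TSS. These counts were set by the choice itself and carry no test.

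The cells were BEAS-2B, an immortalized human bronchial epithelial line, starved of serum overnight and then left untreated (control) or given 1 μM iAs for 6 h. Chromatin was immunoprecipitated with an antibody against HIF1α or against Nrf2, which gave 4 groups of 1 library each, with an input DNA sample beside them. With 1 library per group there is no replicate check, and a region absent from a list may lie just under the threshold of the authors' peak caller. The lists give a start and an end per interval and no height, so the read depth is unknown and width is the only measure of size. The lists held 3204 and 7743 intervals for Nrf2 and 6008 and 12826 for HIF1α, each without and with iAs. The iAs-treated HIF1α library had the most intervals, and the part of that in the number of iAs-only regions was not tested. Peak positions hold no expression values, so the cell type could not be checked against markers.

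HIF1α is the oxygen-regulated subunit of the HIF1 transcription factor. It is degraded when oxygen is plentiful, and when stabilized it pairs with ARNT and binds a short core, ACGTG or GCGTG, in promoters and enhancers of genes for glycolysis, angiogenesis and pH control. Nrf2 is the master regulator of antioxidant genes and binds a longer element, some forms of which contain the AP-1 letters TGACTCA. Many human promoters lie in CpG islands, stretches of GC-rich sequence in which the CpG dinucleotide is not depleted as it is elsewhere, and further islands lie inside or between genes.

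The sequences of 7 regions are given first because the results turn on what they contain. Each is a window reaching 100 bp to either side of a region's centre, read 5′ to 3′ from the hg19 plus strand, with the HIF core and the AP-1 letters in capitals on whichever strand they occur. The first pair are the widest regions between genes and upstream of a gene, at SIX2 and IGF2BP1, and their central windows hold neither motif. BCOR and AHRR were the named single genes with the most and the third most regions, and their windows were picked for a HIF core. The core was in 6 of the 15 regions at BCOR and in 3 of the 8 at AHRR. The other 3 lie by genes of the lists described further on and were also picked for their HIF core. The one at JUNB was picked for an AP-1 element as well and is nearer to the start of HOOK2.
SIX2 upstream region, chr2:45396559-45396759, plus strand: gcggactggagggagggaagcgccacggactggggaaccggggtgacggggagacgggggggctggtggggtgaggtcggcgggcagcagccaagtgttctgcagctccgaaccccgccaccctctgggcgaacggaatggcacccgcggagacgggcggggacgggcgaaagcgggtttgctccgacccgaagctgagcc
IGF2BP1 upstream region, chr17:47073211-47073411, plus strand: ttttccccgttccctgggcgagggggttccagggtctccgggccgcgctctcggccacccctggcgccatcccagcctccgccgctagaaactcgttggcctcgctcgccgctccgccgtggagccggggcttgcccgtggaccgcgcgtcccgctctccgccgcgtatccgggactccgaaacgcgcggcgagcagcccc
BCOR intron region, chrX:39965146-39965346, plus strand: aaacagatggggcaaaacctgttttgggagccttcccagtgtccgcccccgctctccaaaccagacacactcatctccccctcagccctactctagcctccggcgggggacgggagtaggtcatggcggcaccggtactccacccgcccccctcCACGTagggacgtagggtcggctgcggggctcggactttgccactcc
AHRR intron region, chr5:374096-374296, plus strand: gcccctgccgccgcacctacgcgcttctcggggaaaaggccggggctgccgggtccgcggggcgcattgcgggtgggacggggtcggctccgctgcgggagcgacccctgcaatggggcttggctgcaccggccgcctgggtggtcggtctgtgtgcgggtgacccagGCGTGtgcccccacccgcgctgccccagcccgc
PFKFB3 upstream region, chr10:6243611-6243811, plus strand: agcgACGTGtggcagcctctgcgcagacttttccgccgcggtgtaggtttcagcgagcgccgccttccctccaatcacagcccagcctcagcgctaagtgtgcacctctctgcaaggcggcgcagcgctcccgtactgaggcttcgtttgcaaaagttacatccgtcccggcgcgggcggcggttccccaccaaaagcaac
SLC2A1 downstream region, chr1:43390161-43390361, plus strand: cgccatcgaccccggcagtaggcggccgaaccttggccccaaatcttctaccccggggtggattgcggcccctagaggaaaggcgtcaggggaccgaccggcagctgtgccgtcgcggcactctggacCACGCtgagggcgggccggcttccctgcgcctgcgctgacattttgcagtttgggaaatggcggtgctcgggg
JUNB upstream region, chr19:12893680-12893880, plus strand: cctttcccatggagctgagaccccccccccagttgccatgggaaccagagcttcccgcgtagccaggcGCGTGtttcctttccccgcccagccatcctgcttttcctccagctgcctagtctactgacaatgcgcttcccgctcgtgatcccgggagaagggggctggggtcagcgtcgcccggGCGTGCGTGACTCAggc
The window at IGF2BP1 held 30 CpG dinucleotides and the one at SIX2 held 21. The window at JUNB, the only one of the 7 picked for both motifs, held 3 HIF cores. A pair of them overlap each other and the last overlaps the single AP-1 element.

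The regions were narrow. Their median width was 269 bp (interquartile range 217 to 378, lowest 188, highest 1821), with a 95% order-statistic interval of 262 to 277 bp for the median. All intervals of shares and medians given here cover the counting of regions within the libraries only, and neighbouring regions are not independent of each other. The HIF1α iAs-only regions within 1 kb of a TSS, 7334 in number, had a median of 321 bp (317 to 325). A width above 500 bp was found in 12.01% of the distant regions and in 21.2% of those near a TSS, a difference of -9.19 percentage points (Newcombe 95% interval -10.9 to -7.38). The distant regions were thus narrower than the promoter regions of the same library. Of the regions away from start sites, 1125 HIF1α control-only regions were narrower still, at a median of 236 bp (233 to 242), and 309 regions with HIF1α in both conditions and no Nrf2 were wider, at 436 bp (408 to 467). The narrowest width in the library, 188 bp, was shared by 143 of the regions described.

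The distance from the region centre to the nearest protein-coding TSS had a median of 6680 bp and an interquartile range of 1976 to 25863 bp, and the most distant region lay 1551510 bp away. Regions more than 5 kb from every TSS made up 55.4% (95% Wilson interval 53.1 to 57.6%). The same share was 85.8% among the HIF1α control-only regions away from start sites and 88.1% among 3248 Nrf2 iAs-only regions away from start sites. The iAs-only HIF1α regions thus stayed closer to genes than either of these sets, with differences of -30.4 points (-33.4 to -27.3) and -32.8 points (-35.3 to -30.2). At the limit used for the choice, the regions just outside lay 999 bp from P2RX5 and 1000 bp from NPTX1 and TCFL5, and those just inside lay 1005 bp from KMT2D, CYP26B1 and DLGAP4. The number of HIF1α iAs-only regions fell steeply with distance, from 4427 in the first 250 bp to 337 between 750 and 1000 bp and 182 between 1000 and 1250 bp, so the limit cuts through the tail of the promoter regions.

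**Figure D1:**
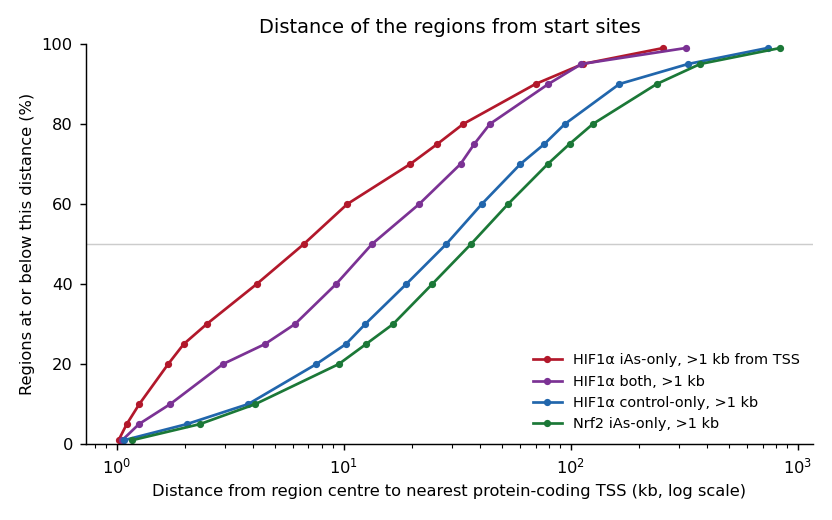
Share of regions (vertical axis, %) whose centre lies at or below a given distance from the nearest protein-coding TSS (horizontal axis, kb, log scale) for 4 sets of regions more than 1 kb from a TSS; points are percentiles. The HIF1α iAs-only regions reach 50% at 6.68 kb, nearer to genes than the other 3 sets.

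The GC content of the regions changed little with distance. The median GC content of the window was between 69.2% and 70.1% in each of 5 distance ranges from 1 to 2 kb up to over 50 kb. The share of CpG-rich windows, defined as at least 50% GC with an observed to expected CpG ratio of at least 0.6, was 77.1% (73.1 to 80.7%) at 1 to 2 kb and 81.1% (75.9 to 85.3%) beyond 50 kb. The ranges between these held 70.3 to 72.3%. What did vary was the presence of a long non-coding RNA (lncRNA) start: 18.2% (14.9 to 21.9%) of the regions at 1 to 2 kb and 43.9% (38.1 to 49.97%) of those beyond 50 kb were within 1 kb of one.

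Base composition set the regions apart from the control-only and Nrf2 iAs-only regions away from start sites and from the moved windows. The gap was smaller against the regions near a TSS and those with HIF1α in both conditions. The median GC content of the window was 69.7% (95% interval 69.2 to 69.7%) and the median CpG ratio 0.768 (0.753 to 0.782). CpG-rich windows numbered 1383 of 1857, or 74.5% (72.4 to 76.4%). The same windows moved by 5 kb were CpG-rich in 9.59% (8.33 to 11.01%), a difference of 64.9 points (62.4 to 67.2). The CpG content thus belonged to the site and had dropped 5 kb away. Among regions near a TSS, 92.9% were CpG-rich, and the difference of distant minus near was -18.4 points (-20.6 to -16.4). Among HIF1α control-only regions away from start sites the share was 8.18% (6.72 to 9.92%), a difference of 66.3 points (63.6 to 68.7), and among Nrf2 iAs-only regions 1.23% (0.906 to 1.67%), a difference of 73.2 points (71.2 to 75.2). Regions with HIF1α in both conditions were CpG-rich in 63.1% (57.6 to 68.3%), a difference of 11.4 points (5.80 to 17.2), with a median CpG ratio of 0.729. In base composition the distant iAs-only HIF1α regions thus stood between these and the promoter regions of their own library, and far from the control-only regions.

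**Figure D2:**
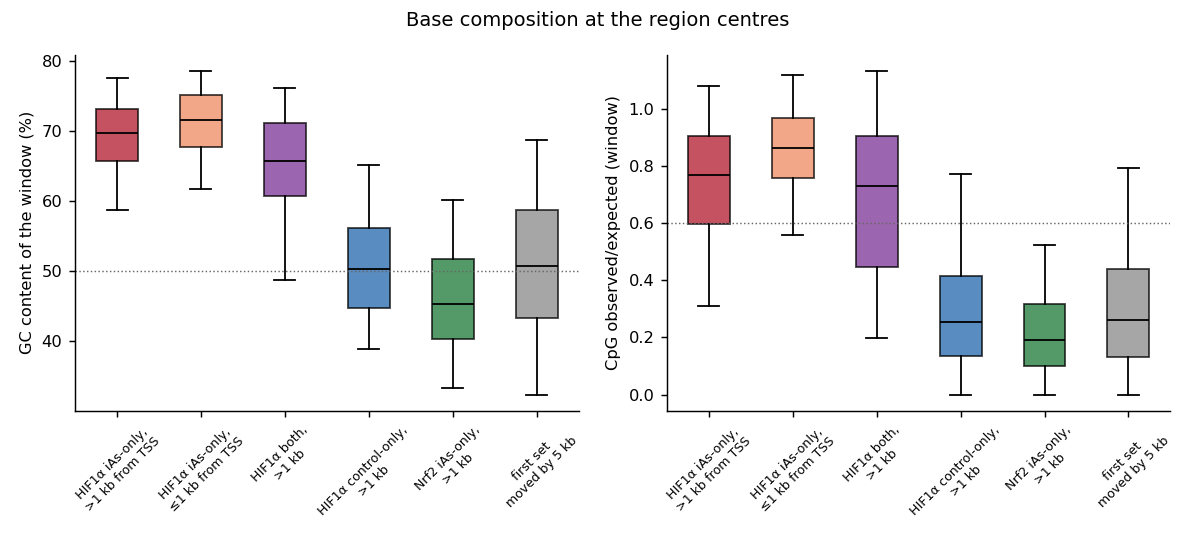
GC content (left, %) and CpG observed to expected ratio (right) of the window that reaches 100 bp to either side of the region centre, in 6 sets; boxes give the quartiles and median, whiskers the 5th and 95th percentiles, dotted lines the limits of the CpG-rich class (50% and 0.6). The HIF1α iAs-only regions away from a TSS have medians of 69.7% and 0.768, close to those near a TSS (71.6% and 0.862) and above the same windows moved by 5 kb.

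The CpG content rose towards the centre of the regions. Within 100 bp of the centre there were 88.6 CpG dinucleotides per kb, against 32.0 per kb at 1.5 to 2 kb, a ratio of 2.77. Near a TSS the same ratio was 5.04. The HIF core followed the same course, with 4.48 sites per kb at the centre and 2.26 per kb at 1.5 to 2 kb, a ratio of 1.98. The AP-1 element did not rise, at 0.140 and 0.150 sites per kb.

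**Figure D3:**
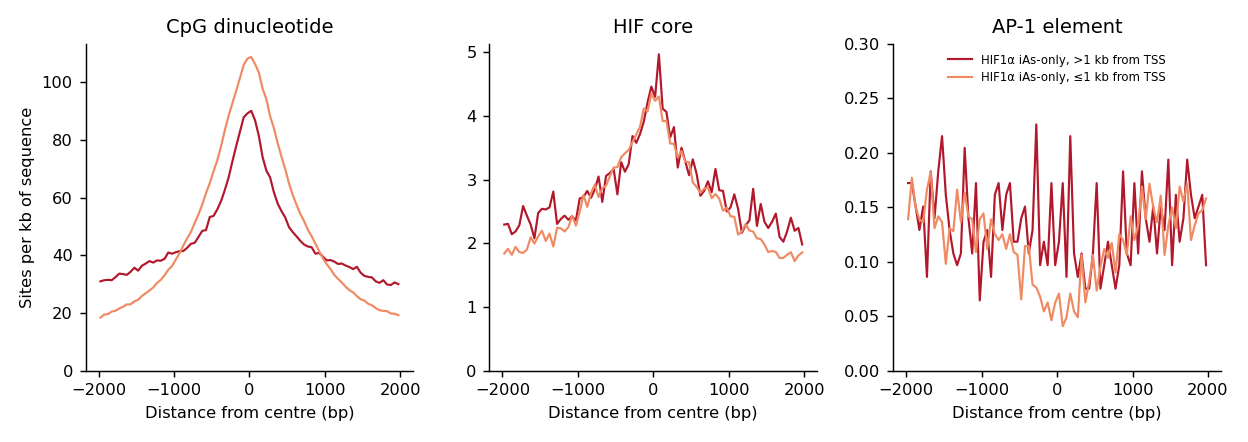
Sites per kb (vertical axes) of the CpG dinucleotide, the HIF core and the AP-1 element against the distance from the region centre (bp) for HIF1α iAs-only regions more than 1 kb and at most 1 kb from a TSS. The first 2 elements peak at the centre in both sets, and the AP-1 element has no peak in either.

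Many of the regions overlapped other annotated features. By the class of the centre, 43.0% (40.8 to 45.3%) were intergenic, 26.7% (24.7 to 28.7%) intronic, 14.3% (12.8 to 16.0%) exonic and 13.03% (11.6 to 14.6%) in promoter sequence between 1 and 3 kb upstream of a TSS, with 2.42% in 3′-UTRs and 0.539% in 5′-UTRs. Classes were taken from protein-coding transcripts, and the exon class was the coding part of their exons. With the transcripts of all annotated genes, the intergenic share was 17.2%. Exons were the class in which the regions differed most from their surroundings: the centres moved by 5 kb fell in exons in 3.28% (2.57 to 4.197%). The exon share was 0.711% in HIF1α control-only regions and 0.8005% in Nrf2 iAs-only regions, a difference of 13.6 points (11.9 to 15.3) from the former. In the distant regions with HIF1α in both conditions it was 2.59% (1.32 to 5.02%). The HIF1α iAs-only regions near a TSS came closest, at 10.2% (9.53 to 10.9%). Introns went the other way, with 42.2% in control-only regions, a difference of -15.6 points (-19.1 to -12.0). Counting the exons of every annotated transcript, 34.1% of the centres lay in one. An annotated TSS of any kind lay within 1 kb of 706 centres (38.0%, 35.8 to 40.2%), and a lncRNA TSS within 1 kb of 443 (23.9%, 22.0 to 25.8%), against 6.46% (5.43 to 7.67%) of the centres moved by 5 kb. The lncRNA share was close to that of the regions near a TSS, with a difference of 1.37 points whose interval included 0 (-0.747 to 3.57). It exceeded the share of control-only regions by 15.5 points (12.9 to 18.0). The distant regions with HIF1α in both conditions had a higher share, 33.7% (28.6 to 39.1%), so closeness to a lncRNA TSS was not particular to the iAs-only regions. Of those regions, 43.0% (37.6 to 48.6%) lay within 1 kb of an annotated TSS of any kind.

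The HIF core was present in 974 of 1857 windows, or 52.5% (50.2 to 54.7%), against 29.6% (27.5 to 31.7%) in the windows moved by 5 kb and 41.6% over all merged regions. The share near a TSS was 51.5%, and the difference of 0.978 points was within counting error (-1.57 to 3.51). HIF1α control-only regions had the core in 34.4%, a difference of 18.1 points (14.4 to 21.6), and Nrf2 iAs-only regions in 20.8%, a difference of 31.6 points (28.9 to 34.2). The regions with HIF1α in both conditions had it most often, in 60.8%, a difference of -8.39 points (-14.1 to -2.40). The core itself contains a CpG, and the part of CpG content in these shares was not tested. By CpG-rich share, the regions with HIF1α in both conditions came after both iAs-only HIF1α sets. Within CpG-rich windows the distant regions had the core in 56.5% (53.8 to 59.1%), the control-only regions in 55.4% (45.3 to 65.2%) of 92 windows, and the Nrf2 iAs-only regions in 24 of 40 windows (44.6 to 73.7%). The differences, 1.04 points (-9.05 to 11.5) and -3.53 points (-17.4 to 12.1), had wide intervals that included 0. Within CpG-poor windows, 40.7% (36.4 to 45.2%) of 474 distant regions had the core and 38.2% (33.9 to 42.6%) of the same windows moved by 5 kb. The CpG-poor control-only regions had it in 32.5%, a difference of 8.19 points (2.97 to 13.5).

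The form of the core with an A first was the less frequent. ACGTG alone was found in 19.2% (17.4 to 21.0%) of the windows, in 11.5% of the moved windows and in 225 of 1125 control-only regions, where the difference of -0.829 points included 0 (-3.82 to 2.07). Against their own windows moved by 5 kb, the ratio was 1.66 for the distant iAs-only regions and 2.18 for the control-only regions. In CpG-poor windows ACGTG was less frequent in the distant iAs-only regions than in the control-only regions, at 13.7% (10.9 to 17.1%) and 20.4% (18.1 to 23.0%), a difference of -6.71 points (-10.5 to -2.59). In the regions with HIF1α in both conditions it reached 46.5% (37.6 to 55.6%) of the CpG-poor windows. Among the 24 orders of the bases of ACGTG that keep the CpG intact, ACGTG ranked 5 by its share of windows and 19 by the ratio of that share to the moved windows. The order with the highest share, CGAGT, was in 23.6% of the windows at a ratio of 2.78. By neither measure did ACGTG lead the strings made of the same bases.

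Other motifs separated the regions from the distant regions of the other libraries. The AP-1 letters TGACTCA were in 51 windows, or 2.75% (2.09 to 3.59%), against 3.88% (3.09 to 4.85%) in the moved windows and 16.2% over all merged regions. In windows moved by 20 kb the share was 2.53%, so the order against the surroundings turned with the distance moved. They were in 21.9% of HIF1α control-only regions and 43.8% of Nrf2 iAs-only regions, differences of -19.1 points (-21.7 to -16.7) and -41.1 points (-42.9 to -39.2). The difference held in CpG-rich windows, at 2.097% against 8.70% in control-only regions (-6.60 points, -14.2 to -2.28). The longer Nrf2 element TGACTCAGC, which contains the AP-1 letters, was in 10 windows (0.539%), against 17.9% of the Nrf2 iAs-only regions. The looser antioxidant response core TGACNNNGC, of which that element is one form, was not rare: it was in 10.8% (9.49 to 12.3%) of the windows and 7.27% of the moved windows, a difference of 3.55 points (1.71 to 5.41). Near a TSS it was in 8.69% (difference 2.14 points, 0.648 to 3.76), in control-only regions in 8.89% (1.94 points, -0.310 to 4.07) and in Nrf2 iAs-only regions in 34.2%. The TEAD letters ACATTCC and the RUNX letters TGTGGTT, bound by factors that act in epithelial enhancers, were in 1.51% and 1.56% of the windows and in 11.6% and 9.33% of the control-only regions. The AP-1, TEAD and RUNX letters were thus rarer here than at the distant control-only regions. The HIF1α iAs-only regions near a TSS had lower shares still, at 0.995%, 0.832% and 0.914%. The distant regions with HIF1α in both conditions had 6.47%, 4.21% and 3.24%.

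The GC box GGGCGG, bound by SP factors, was in 51.0% (48.7 to 53.3%) of the windows and in 10.5% of the moved windows. Near a TSS it was in 58.4%, a difference of -7.36 points (-9.90 to -4.83). The ETS letters CCGGAAG, a promoter element, were in 4.25% (3.43 to 5.27%), fewer than near a TSS (8.004%, difference -3.75 points, -4.80 to -2.57). The letters AAGATGGCG of the YY1 element were in 0.323% and near a TSS in 1.13%. These promoter elements were thus less frequent away from start sites than near them. The reverse held for the CTCF core, the element of the insulator protein, which was in 27 windows (1.45%, 1.00 to 2.11%), in 0.0539% of the moved windows and in 0.382% of the regions near a TSS (difference 1.07 points, 0.589 to 1.74). Away from start sites, the CTCF core was also in 1.87% of the control-only regions and 2.27% of those with HIF1α in both conditions. It was thus not particular to the regions described. The E-box CACGTG, which contains ACGTG, was in 6.68% (5.63 to 7.90%) and near a TSS in 5.11% (difference 1.56 points, 0.390 to 2.88). In the regions with HIF1α in both conditions the E-box was in 8.74% (6.07 to 12.4%), and in the control-only regions in 4.71%. The heat shock pair GAANNTTC was in 2.21% and the metal-response letters TGCACNC in 11.7%, both below the moved windows (4.74% and 16.8%).

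**Figure D4:**
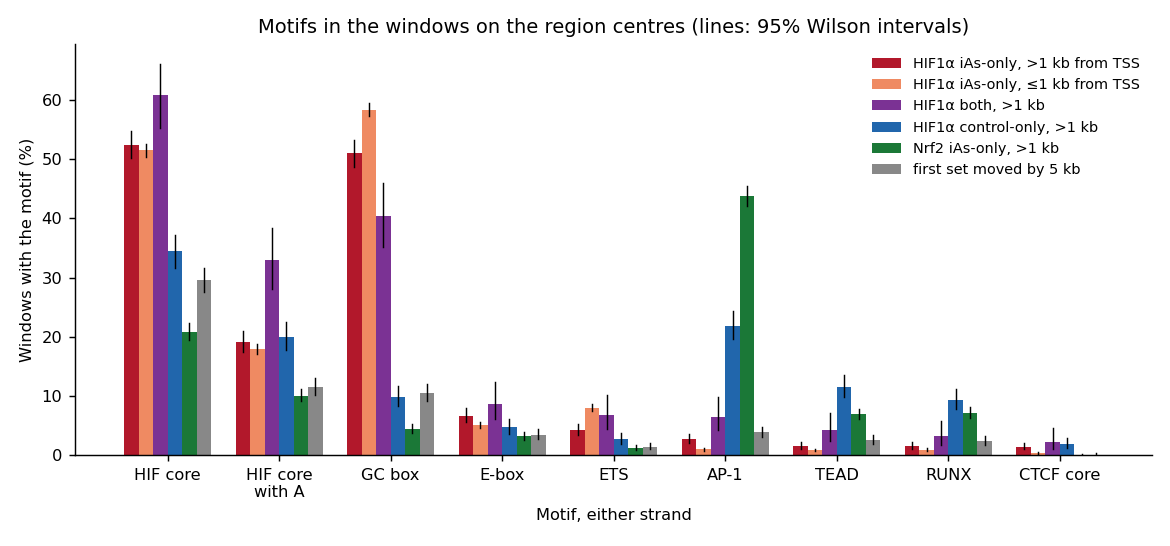
Share of windows, reaching 100 bp to either side of the region centre (vertical axis, %), that hold each of 9 motifs on either strand in 6 sets of regions, with 95% Wilson intervals as lines. The HIF core is in 52.5% of the HIF1α iAs-only regions away from a TSS and 29.6% of the same windows moved by 5 kb, whereas AP-1 is in 2.75% of them and in 43.8% of the Nrf2 iAs-only regions.

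The 1383 CpG-rich and the 474 CpG-poor regions differed in position as well as in sequence. Introns held 22.5% of the CpG-rich and 38.8% of the CpG-poor regions, a difference of -16.3 points (-21.3 to -11.5), and exons held 15.9% and 9.70%. A lncRNA TSS lay within 1 kb of 27.8% and 12.2% (15.6 points, 11.6 to 19.2). An Nrf2 interval of the iAs-treated cells lay within 10 kb of 12.9% and 22.2% (-9.28 points, -13.6 to -5.31). CpG-poor regions also gathered near the ends of chromosomes: 46.2% of them were within 5 Mb of an end, against 24.7% of the CpG-rich regions (-21.5 points, -26.5 to -16.5). Over all 1857 regions that share was 30.2%, above the 16.6% of regions near a TSS, the 10.6% of control-only regions and the 7.05% of Nrf2 iAs-only regions. The measure of chromosome ends was added after the regions had been inspected.

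The regions were uneven over the chromosomes. Per 100 protein-coding genes there were 14.9 on chromosomes 9 and 13 and 14.0 on chromosome 17, and 2.103 on chromosome 4 and 2.92 on chromosome 14. The densest megabase, near the end of chromosome 17 (chr17:79000001-80000000), held 26 regions beside 40 protein-coding genes. On chromosome 5 the first megabase held 25 regions, 11 of them CpG-rich, at AHRR, EXOC3, SLC9A3, CEP72 and their neighbours. In that megabase the HIF1α list of iAs-treated cells had 40 intervals, whereas the HIF1α list of control cells had 3 and the Nrf2 lists had 1 without and 2 with iAs.

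Regions lay close to one another. Another of the 1857 regions was found within 10 kb of 36.6% (34.4 to 38.8%), against 7.64% for the HIF1α control-only and 19.9% for the Nrf2 iAs-only regions away from start sites. The share was higher still among the HIF1α iAs-only regions near a TSS, at 42.7%, and over all merged regions, at 51.7%, so closeness was not particular to the distant regions. The sets differ in size, which bears on this measure. Chains of at least 4 regions, each within 10 kb of the next, numbered 36 and held 174 regions (9.37%). The longest chain, of 10 regions over 34.9 kb of chromosome 22 between PPARA and WNT7B, held no interval of the other 3 libraries. Chains at genes of development were at ZIC2 and ZIC5 (6 regions), ONECUT3 (6), FOXF2 (5), PAX5 (5), DLX2 (4), NKX2-2 (4), FOXC1 (4), UNCX (4) and TBX2 (4). Chains at genes of Polycomb proteins, which keep developmental genes silent, were at CBX8 (5) and, beside SPAG6, BMI1 (4). These genes were picked from the 36 chains after their values were seen.

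BCOR, a corepressor of BCL6 and part of a Polycomb complex, had the most regions of any gene, 15 in its body or within 10 kb of it, of which 14 were CpG-rich and 6 held the HIF core. They fell into 3 chains in the introns of its longer transcripts: 6 regions between 11.6 and 6.81 kb upstream of the canonical TSS, 5 regions between 60.4 and 55.0 kb upstream, and 4 regions between 78.2 and 74.6 kb upstream. The widths ran from 188 to 651 bp. In all, the HIF1α library of iAs-treated cells had 18 intervals at the gene, the HIF1α library of control cells had 0, and Nrf2 had 0 without and 1 with iAs. The single Nrf2 interval, 181 bp wide, lay 73.8 kb upstream, beside the last chain. Of the 3 HIF1α intervals at the gene that are not among the regions described, 2 lay within 1 kb of the canonical TSS.

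BAHCC1, which codes for a chromatin protein, had 10 regions of 213 to 1372 bp, 7 of them CpG-rich. Its widest region ran from 0.930 to 2.30 kb downstream of the TSS, and 3 more regions followed within 5.46 kb. Here the other libraries were not empty: HIF1α of control cells had 2 intervals, Nrf2 had 1 without and 2 with iAs, and they met at 2 places. One interval of each of the 3 libraries lay about 27.4 kb downstream, and the second HIF1α control and Nrf2 iAs intervals overlapped each other 1.16 to 1.53 kb upstream of the TSS. AHRR, the repressor of the aryl hydrocarbon receptor, had 8 regions of 190 to 380 bp, and only 2 of them were CpG-rich. A chain of 5 stood in 4.62 kb of an intron between 73.8 and 78.5 kb downstream of the TSS, and no interval of the other 3 libraries lay at the gene, where the HIF1α library of iAs-treated cells had 13. The same 8 regions were counted at the read-through gene PDCD6-AHRR. ZNF503, a zinc finger repressor, had 7 regions around a gene of 3.94 kb, 6 of them with the HIF core. EXD3, ONECUT3 and ZIC2 had 6 each, and ARID3A, CBX8, CCND1 and NOC2L had 5 each.

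**Figure D5:**
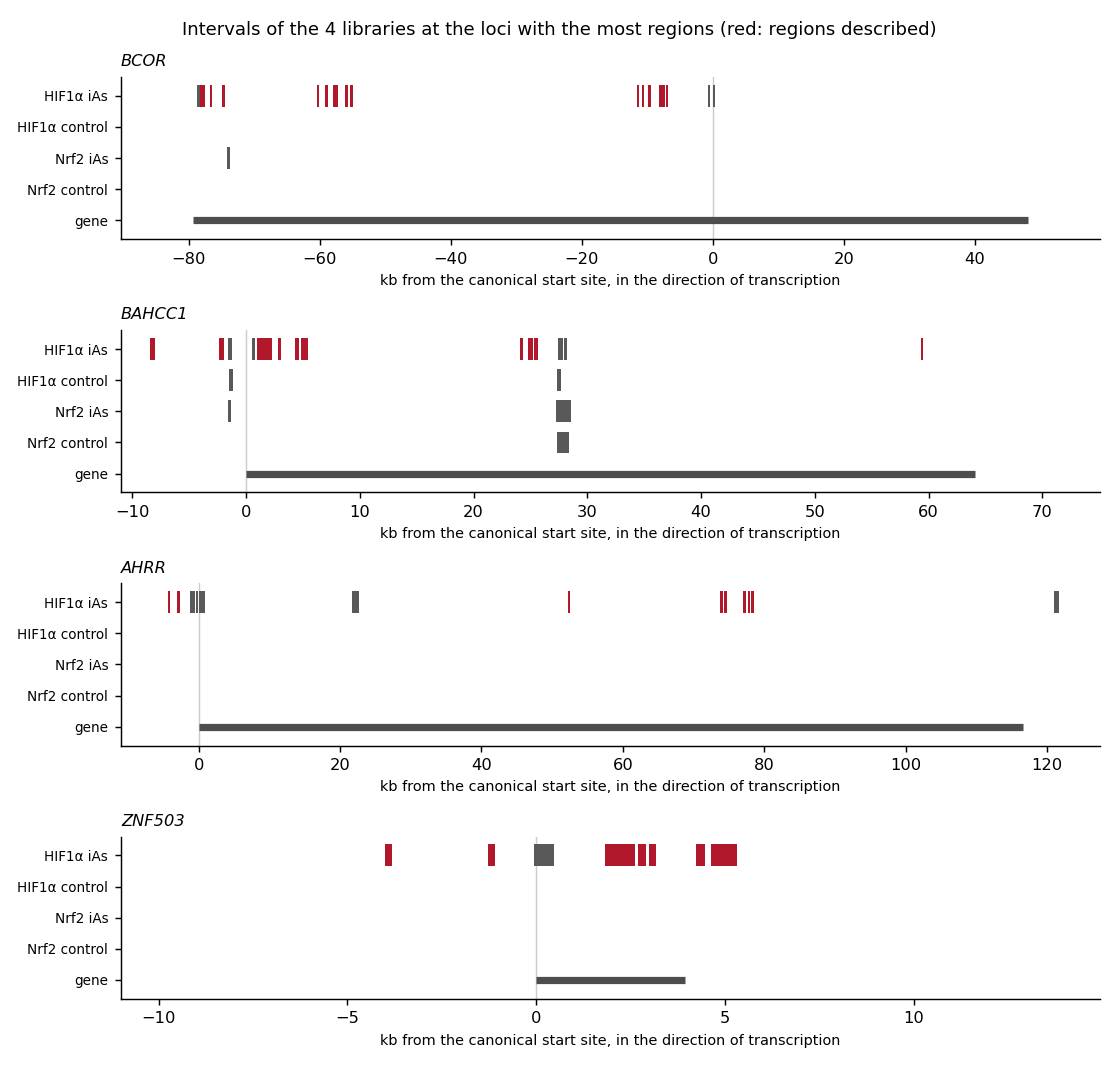
Intervals of the 4 libraries at BCOR, BAHCC1, AHRR and ZNF503 (rows), against the distance from the canonical TSS in kb along the direction of transcription; the dark bar is the gene, red marks are the regions described and grey marks all other intervals. The red regions form separate groups, as in the 3 chains at BCOR, and the control rows are empty at BCOR, AHRR and ZNF503.

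The 10 widest regions were all CpG-rich. The widest, 1821 bp at chr5:176881157-176882977, lay 6.73 kb downstream of a start of PRR7, which codes for a proline-rich membrane protein, and held 18 HIF cores. Those at IGF2BP1 (1473 bp, 1.44 kb upstream, 11 cores), an mRNA-binding protein of fetal tissue, and SIX2 (1466 bp, 160 kb upstream, 4 cores), a homeobox factor of kidney progenitors, came next. The region named for SIX2 lay 96 bp from the start of a lncRNA and that named for MON2 (1232 bp, 136 kb downstream of its TSS) 299 bp from another. BAHCC1 (1372 bp), EMX1 (1364 bp), FMN2 (1310 bp), FAM43A (1295 bp), TNRC18 (1252 bp) and MNT (1238 bp), the last a partner of MAX, had their region 1.32 to 7.84 kb downstream of a TSS. The region at EMX1, a homeobox factor of the forebrain, held no HIF core in 1364 bp, so width did not go with the core in every case. None of the 10 held an AP-1 element.

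The gene nearest to a region often had HIF1α at its own start. For 65.6% (63.5 to 67.8%) of the regions, the nearest protein-coding gene had a HIF1α interval of iAs-treated cells within 1 kb of a TSS. Over all 20176 protein-coding genes that share was 44.3%. The centres moved by 5 kb gave 66.7% (64.5 to 68.8%) and the HIF1α control-only regions 65.2%, so the share was that of the neighbourhood and not particular to the regions.

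A region lay in the body or within 10 kb of 1483 of 20176 protein-coding genes (7.35%). Of these, 1090 genes had 1 region, 258 had 2 and the others 3 or more. The glycolysis list had 2 of 23 genes with a region. PFKFB3, an activator of glycolytic flux, had 2 of them in its upstream sequence, 247 and 336 bp wide, and SLC2A1, the main glucose transporter, had 1 of 329 bp, 18.6 kb from its nearest TSS. The share of this list was close to the background of all genes, although 21 of its 23 genes had a HIF1α interval of iAs-treated cells at the start. The hypoxia-inducible targets had 5 of 22. They included ADM, a vasodilator peptide, BNIP3L, a mitophagy receptor, DDIT4, an inhibitor of mTOR signalling, and SLC16A3, a lactate exporter with 2 regions in its introns of 216 and 395 bp. The region at BNIP3L lay 59.5 kb from the nearest TSS and the one at ADM 1.73 kb. Of the hypoxia-inducible targets named, all but ADM also held a HIF1α interval of control cells at their start, as did 17.8% of all protein-coding genes.

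The list of HIF subunits and oxygen sensors had 2 of 16 genes, BHLHE41 and KDM4B. Of these, BHLHE41 is itself a transcriptional repressor, not a subunit or a sensor. The Nrf2 pathway list had 2 of 26. These were MAFK, a small MAF partner of Nrf2, and the autophagy receptor SQSTM1, whose pair of regions lay nearer to the starts of LTC4S and MGAT4B. The metallothioneins and heat shock proteins had 1 of 21 (HSP90AB1, a chaperone), and the hexosamine and serine-glycine list 1 of 12 (SHMT2, the mitochondrial serine hydroxymethyltransferase, whose 2 regions lay 1.59 and 1.49 kb from a start of NDUFA4L2). Of the stemness genes, 2 of 14 had a region, SOX2 in its exon and WNT2 1.02 kb upstream. Of the keratins and junction genes, 2 of 20 had one, DSP and ITGB4. Each of these lists had at most 2 genes with a region, too few to set apart from the 7.35% of all genes.

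The AP-1 and immediate early genes, which respond within minutes to growth signals and stress, had 6 of 15 (95% interval of the share 19.8 to 64.3%) with a region, 13 regions in all. JUNB had 4 of 203 to 672 bp, one pair 8.96 and 8.52 kb upstream, nearer to the start of HOOK2 (4.07 and 4.51 kb), and another 1.14 and 2.32 kb downstream of its start. ATF3 had 3 regions between 1.08 and 1.79 kb upstream, of 220 to 283 bp. FOS had 2 upstream, 1.16 and 1.49 kb from its start, and IER2 had 2 downstream, while FOSL2 (638 bp) and JUN (754 bp) had 1 each. All 6 genes had HIF1α intervals of both control and iAs-treated cells at their start, where 17.8% and 44.3% of all protein-coding genes had one, and 9 of the 13 regions were within 2 kb of a TSS. Only 1 of the 13 held the AP-1 element in its window, the one at JUNB printed above. The genes are short (median 7.18 kb, against 27.2 kb for all protein-coding genes).

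A list of 254 homeobox, PAX, SOX, FOX, TBX and ZIC genes, transcription factors of embryonic patterning, was drawn up after the chains had been seen and is given as a description. Of these, 95 (37.4%) had a region, beside 7.35% of all protein-coding genes, and their median length was 6.72 kb. They held 149 different regions, of which 123 were CpG-rich and 48 lay within 2 kb of a TSS. Over all 1857 regions, 74.5% were CpG-rich. The part of CpG content and of closeness to a TSS in the share of genes was not tested. ONECUT3 and ZIC2 had 6 regions each and PAX5 had 5. Their widest regions were those of EMX1 (1364 bp), PITX3 (1223 bp, 10.9 kb downstream and nearest to the start of ELOVL3), ZIC2 (1077 bp, shared with ZIC5) and TBX18 (1056 bp, 9.43 kb upstream). HIF1α of iAs-treated cells was not more frequent at their start sites, where 100 of 254 (39.4%) had an interval, against 44.3% of all genes. Genes of this list that lie side by side, such as HOXB2 and HOXB3, can share a region, and the 95 genes are not independent.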

How the data were processed

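BEAS-2B cells were profiled by ChIP-seq for HIF1α and Nrf2 with 1 library per antibody and condition. The authors deposited intervals as base positions on hg19 and a merged list, with no heights, scores or counts, so read depth is unknown. The submitters' processing notes name BWA and MACS2 2.1.0, whereas the methods name MACS or SICER after down-sampling of tags within a group; which caller made which list is not given in the sources used here. The antibody sources differ between the labels (Santa Cruz for Nrf2, Abcam for HIF1α) and the methods (Active Motif). The input sample was not used here.

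Starts were changed to 1-based positions. Transcripts were those of GENCODE release 44 lifted to GRCh37, and sequence came from GRCh37 (hg19). Over protein-coding transcripts, a centre was first classed as promoter if up to 3 kb upstream of a TSS. It was then classed as 5′-UTR, as exon, as intron, as 3′-UTR, and otherwise as intergenic. The exon class was the coding part of exons. Both strands were searched for motifs from 100 bp before to 100 bp after each centre, and again in those windows moved by 5 kb, which were treated as independent. Shares carry Wilson 95% intervals, differences Newcombe 95% intervals and medians order-statistic 95% intervals, and no p-value was computed. The moved windows share their neighbourhood with the regions.

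The regions and lists were chosen with earlier results of these data known. Named genes were those of the 10 widest regions, the 10 genes with the most regions, the genes of the lists with a region, and the regions at the 1 kb limit. A few of these genes are not reported here. Overlap, classes, motifs and intervals were tested on simulated data. The work used Python 3.11.15, NumPy 2.4.6, SciPy 1.17.1 and matplotlib 3.10.9. Alternatives covered the distance limit, the TSS set, the window, the gene distance and the spacing. Other columns of the file were not used.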

Additional observations from a re-analysis of the deposited data

How the results depend on the processing

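Of 48 alternatives to the main values, 20 stayed within the limits set for a count or an interval and 28 moved. The limits for counts were wide. A fall from 1857 to 1389 regions with a distance limit of 2 kb was counted as staying. So was a fall from 1483 to 1289 genes when only the gene of the nearest TSS was taken. The number of regions, 1857, was 1028 with a limit of 5 kb and 1151 with the TSS of all annotated transcripts. The HIF core share of 52.5% was 65.3% in whole regions, 73.8% in windows of 200 bp on each side, 49.8% away from all annotated TSS, and 56.5% and 40.7% in CpG-rich and CpG-poor windows, the last pair added after the data were seen. In the moved windows, 29.6%, it was 27.2% at 20 kb, 49.2% in the wider windows and 40.3% at the length of the region. The AP-1 share of 2.75% was 3.93% in whole regions, 4.85% in the wider windows and 2.05% in the wider 50% of regions, and in the moved windows, 3.88%, it was 2.53% at 20 kb, 6.95% in the wider windows and 5.65% at the length of the region. At 20 kb the AP-1 share of the moved windows was thus below that of the regions, the opposite of the order at 5 kb. Introns went from 26.7% to 22.5% with transcripts of all genes and 31.1% with a promoter of 1 kb, intergenic sequence from 43.0% to 17.2% and 49.9%, and exons from 14.3% to 34.1% when every annotated exon was counted, a setting added after the data were seen. The median GC content was 69.1% over whole regions. Genes with a region, 1483, numbered 985 within 2 kb and 3067 within 50 kb. HIF1α at the start of the nearest gene was 70.7% within 3 kb and 62.1% for regions over 5 kb from a TSS. The share with a neighbour, 36.6%, was 31.5% within 5 kb and 45.2% within 25 kb, and 36.1% without the BCOR locus. Of 30 alternatives for the gene lists, 7 moved. No paired analysis was possible because each group is 1 library. The missing replicates and read depth limit every statement here to these libraries.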

Other observations

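Some chains of regions lay at genes that no list covered. CCND1, the cyclin that drives entry into the cell cycle, had 5 regions of 189 to 374 bp in 5.34 kb, all of them CpG-rich. IRS2, an adaptor of insulin signalling, had 4 in 2.98 kb, of 314 to 570 bp and all CpG-rich. ZBTB7A, a zinc finger repressor, had 4 in 5.87 kb, of which 1 was CpG-rich. NRARP, a regulator of Notch signalling, was nearest to 4 regions in 15.8 kb, of which 1 was CpG-rich. On chromosome 5, SLC9A3, a sodium-proton exchanger, was overlapped by a chain of 5 regions in 10.6 kb, 4 of them CpG-rich.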
